A study of Homo sapiens with 21 samples.

Results

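The genes described here encode the enzymes that remove superoxide and peroxides: catalase (CAT), the superoxide dismutases (SOD1, SOD2 and SOD3) and the glutathione peroxidases (GPX1, GPX2, GPX3, GPX4, GPX7 and GPX8). They were taken by gene symbol from a table of regularized log2 (rLog) expression values, in which all 10 were present among 23368 genes. The values came from RNA-seq of hTERT-HPNE, an immortalized nontransformed human pancreatic cell line, and the question was how these genes moved under oxidative stress and under DNA double-strand breaks. Untreated cells, collected at 0 h, were compared with cells given 300 uM hydrogen peroxide (H2O2) or 400 ng/ml neocarzinostatin (NCS), a radiomimetic drug that breaks DNA, for 4, 8 or 24 h. Each of the 7 groups held 3 biological replicates, 21 libraries in all, and every group was the same parental line, so the values describe 1 cell line. Untreated cells were taken at the start only, so time in culture and treatment cannot be told apart in a difference from untreated cells, whereas H2O2 and NCS were compared at equal times.

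Superoxide dismutases turn superoxide into hydrogen peroxide, which catalase splits into water and oxygen and which glutathione peroxidases reduce with electrons from glutathione. The enzymes divide the work by place: SOD1 in the cytosol, SOD2 in mitochondria, SOD3 outside the cell, and catalase in peroxisomes. GPX1 to GPX4 are selenoproteins in humans, whereas GPX7 and GPX8 carry cysteine at the active site and work in the endoplasmic reticulum.

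Of the 23368 genes, 3674 stood at 0 in every library and 19694 were tested, including all 10 genes. Read depth per library is unknown, because the table holds no counts, and the library medians over the tested genes ran from 7.14 to 7.19. Markers of the line were present, with NES between 11.8 and 12.3, VIM between 16.8 and 17.2, KRT8 between 7.73 and 8.28 and KRT18 between 11.4 and 11.9. The duct keratin KRT19 stayed between 0.575 and 0.727, far below the other markers of the line. The acinar markers CPA1 and CTRB1 and the endocrine markers GCG, SST and CHGA did not exceed 0.676 in any library. The acinar markers PRSS1 and CELA3A and the endocrine marker INS were at 0 throughout or not listed under those symbols. Of the 3 endothelial markers, CDH5 did not exceed -2.03, PECAM1 2.42 and VWF 3.41. Of the 3 blood markers, PTPRC did not exceed 0.983 and CD74 0.888, and HBB was at 0 throughout or not listed. In bulk RNA, fewer cells that use a gene and less of its RNA per cell cannot be told apart.

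GPX1, GPX3 and CAT, a glutathione peroxidase of the cytosol, a secreted glutathione peroxidase and catalase, were higher than in untreated cells 24 h after either agent. GPX1 rose by 0.53 ± 0.03 (log2 difference ± SE) after H2O2 and 0.58 ± 0.03 after NCS, GPX3 by 0.52 ± 0.06 and 0.59 ± 0.06, and CAT by 0.20 ± 0.03 and 0.26 ± 0.03. SOD2 fell at 24 h, by 0.13 ± 0.04 after H2O2 and 0.17 ± 0.04 after NCS. GPX8 fell at 4 and 8 h of NCS and did not pass at 24 h, while after H2O2 it was lower at 8 and 24 h. A gene passed at a Benjamini-Hochberg adjusted p under 0.05 from limma, adjusted over all tested genes, and the p-values measure the spread between biological replicates.

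After H2O2, 5 of the 10 genes passed at 4 h, 4 at 8 h and 6 at 24 h, beside 45.9%, 37.4% and 40.0% of all tested genes. After NCS, 2 passed at 4 h, 2 at 8 h and 5 at 24 h, beside 17.2%, 23.9% and 38.0%. Each count lay within 2 genes of what the share of all genes gives for a list of 10. The median absolute difference of the 10 genes was 0.144 at 24 h of NCS, against 0.065 over all tested genes, and 0.105 at 24 h of H2O2, against 0.07. All tested genes include low ones, whose differences rLog values shrink. No median over genes of like level was taken, so these medians do not set the 10 genes apart. None of the 10 also passed the further limit that the study set, an absolute log2 difference over 1, in these 6 comparisons. That limit was passed by 0.696%, 0.518% and 1.61% of all tested genes at the H2O2 times and by 0.218%, 0.340% and 1.50% at the NCS times. At a lower limit of 0.58, GPX1 and GPX3 passed at 24 h of NCS, beside 3.97% of all tested genes.

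**Figure D1:**
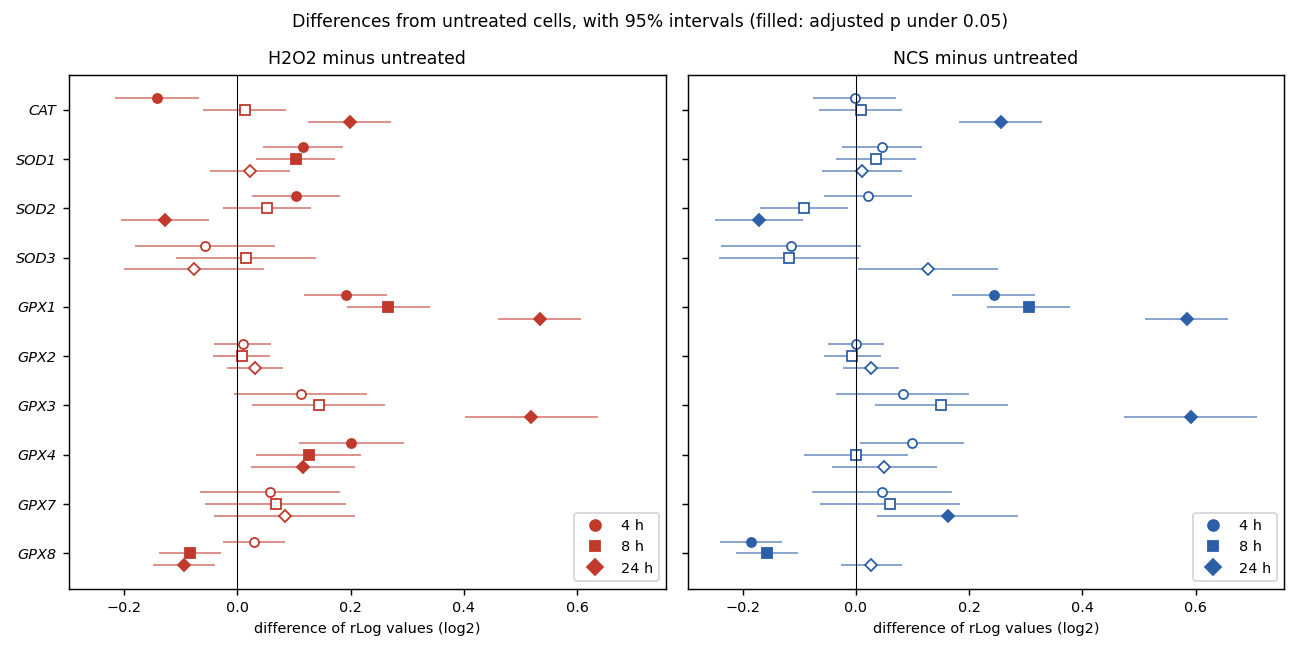
Log2 differences of rLog values from untreated cells (x axis) for the 10 genes (y axis) at 4, 8 and 24 h of H2O2 (left) and NCS (right), each from 3 libraries against 3, with 95% intervals from limma and filled symbols where the adjusted p was under 0.05. GPX1 and GPX3 lie farthest to the right at 24 h under both agents, between 0.52 and 0.59.

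Levels of different genes can be set side by side only per transcript length. In untreated cells the log2 level per kilobase, taken with the shortest and the longest annotated transcript length, was 12.0 to 12.3 for GPX1, 11.7 for SOD1 and 10.7 to 11.1 for GPX4, the peroxidase that reduces lipid peroxides in membranes. GPX8 lay between 10.4 and 12.1, so its place among those genes depends on the transcript used. CAT at 8.36 to 8.37, GPX3 at 8.15 to 8.26 and GPX7 at 7.63 formed a middle range on the same per-kilobase scale. SOD3 followed at 5.11 and GPX2 at 0.607 to 0.742. SOD2, whose annotated lengths run from 815 to 16008 bases, gave 5.61 to 9.90, so its place against CAT, GPX3 and GPX7 cannot be told.

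**Figure D2:**
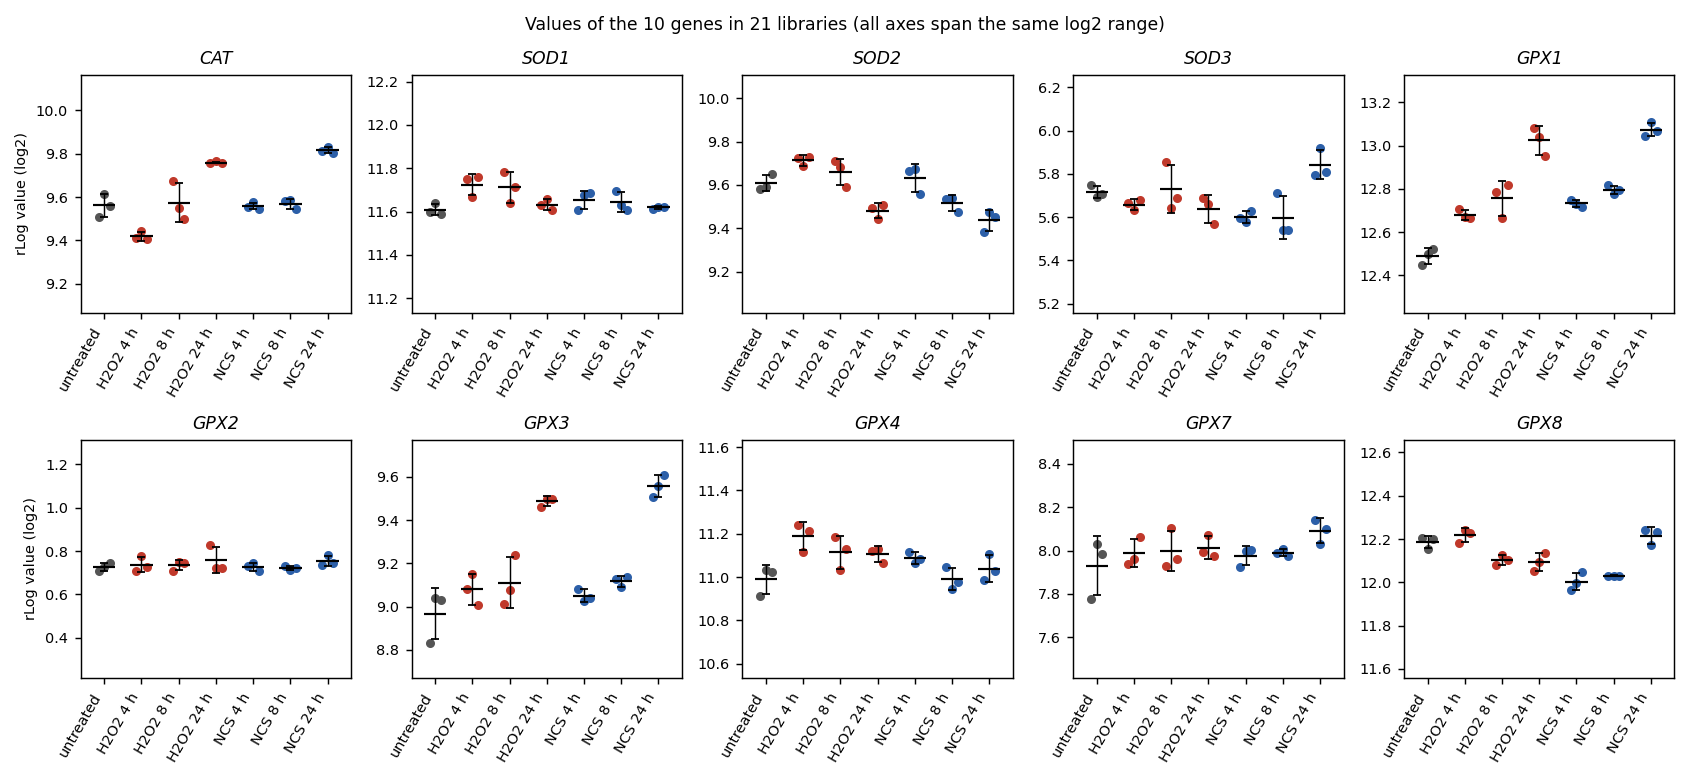
rLog values (log2, y axis) of the 10 genes in the 21 libraries by group (x axis): points are libraries, horizontal lines group means and error bars SD (n = 3), and all panels span the same log2 range. The 24 h libraries of GPX1 and GPX3 stand above all others, and GPX2 stays between 0.707 and 0.830.

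CAT (chromosome 11, 34438925 to 34472062, plus strand, GRCh38) moved in opposite directions early and late after H2O2. Its rLog value was 9.51, 9.62 and 9.56 in untreated cells, 9.41, 9.44 and 9.40 at 4 h of H2O2, and 9.76, 9.76 and 9.76 at 24 h. All 4 h libraries lay below and all 24 h libraries above the untreated ones, and the 8 h libraries, from 9.50 to 9.68, overlapped them. CAT thus fell by 0.14 ± 0.03 at 4 h (limma adjusted p = 0.002636) and rose by 0.20 at 24 h (adjusted p = 0.0001211). After NCS it stood at 9.56, 9.58 and 9.55 at 4 h, within the untreated range, and at 9.81, 9.83 and 9.81 at 24 h, above every library of the other groups (difference 0.26, adjusted p = 7.499e-06). In the order of group means, the steps from NCS 4 h over untreated and NCS 8 h to H2O2 8 h had overlapping ranges, whereas H2O2 4 h below them and the 24 h groups above them did not overlap their neighbours. An exact two-sided permutation test of 3 libraries against 3 cannot give a p below 0.1, which was the value at each of these separated steps.

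SOD1 (chromosome 21, 31659622 to 31668931, plus strand), the copper-zinc dismutase of the cytosol, was higher early after H2O2. It measured 11.60, 11.64 and 11.59 in untreated cells and 11.75, 11.67 and 11.76 at 4 h of H2O2, and no 4 h library reached down into the untreated range. The difference was 0.12 ± 0.03 (limma adjusted p = 0.008386). At 8 h the libraries spread from 11.64 to 11.78, with a difference of 0.10 (adjusted p = 0.0207). That 8 h call was lost without H2O2 8 h replicate 1 (adjusted p = 0.1411) or 3 (0.05048), without untreated replicate 1 (0.05985) or 3 (0.07252), and when the compared groups were fitted alone (0.114). By 24 h of H2O2 SOD1 was at 11.63, 11.66 and 11.61, overlapping untreated cells. The 24 h difference of 0.02 passed only under quantile normalization (0.08, limma adjusted p = 0.04198). The NCS groups ran from 11.61 to 11.69, with differences of 0.05, 0.04 and 0.01 that did not pass. Set directly against NCS, SOD1 with H2O2 did not pass at 4 h (0.07, limma adjusted p = 0.102) or 8 h (0.07, 0.1369). The 4 h difference passed without H2O2 4 h replicate 2 (0.10, adjusted p = 0.03244). That at 8 h passed with library medians aligned (0.09, 0.03057) and without H2O2 8 h replicate 2 (0.10, 0.01851).

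SOD2 (chromosome 6, 159669057 to 159745186, minus strand), the manganese dismutase of mitochondria, was lower at 24 h under both agents. A second annotated entry of that symbol spans 159679119 to 159762529. Untreated libraries stood at 9.58, 9.59 and 9.65, the 24 h H2O2 libraries at 9.49, 9.44 and 9.51, and the 24 h NCS libraries at 9.38, 9.48 and 9.45. Both 24 h groups lay below every untreated library. The fall was 0.13 after H2O2 (limma adjusted p = 0.00914) and 0.17 after NCS (adjusted p = 0.0009073). After H2O2 it was lost without untreated replicate 3 (fall of 0.11, adjusted p = 0.05089) and under quantile normalization (fall of 0.08, adjusted p = 0.1041). At 4 h of H2O2 SOD2 was at 9.72, 9.69 and 9.73, above all untreated libraries, with a rise of 0.10 (adjusted p = 0.02753). This early call was lost without H2O2 4 h replicate 1 (adjusted p = 0.07277) or 3 (0.07878), without untreated replicate 1 (0.09314) or 2 (0.08075), and with library medians aligned (0.06664). At 8 h of NCS the libraries, at 9.53, 9.54 and 9.48, also lay below every untreated one. That difference of -0.09 did not pass (limma adjusted p = 0.08277), but did with library medians aligned (-0.12, 0.02239).

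SOD3 (chromosome 4, 24789912 to 24800842, plus strand), the extracellular dismutase, had the lowest level per kilobase of the dismutases. Its libraries measured 5.75, 5.69 and 5.71 in untreated cells, 5.69, 5.66 and 5.57 at 24 h of H2O2, and 5.80, 5.92 and 5.81 at 24 h of NCS. The 24 h NCS libraries lay above and the 24 h H2O2 libraries below the untreated range, by less than the SD of the treated group, and neither difference from untreated cells passed (0.13 and -0.08, limma adjusted p = 0.105 and 0.3672). At 4 h the libraries of H2O2, from 5.63 to 5.68, and of NCS, from 5.58 to 5.63, also lay below the untreated range. Neither difference passed (-0.06 and -0.11, limma adjusted p = 0.4739 and 0.2315), but under quantile normalization that with H2O2 did (-0.18, 0.01736). At 8 h the libraries ran from 5.54 to 5.86 and neither difference passed (0.02 and -0.12, adjusted p = 0.9376 and 0.1787). Without NCS 8 h replicate 1 the one with NCS did (-0.18, 0.04521).

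GPX1 (chromosome 3, 49357171 to 49358600, minus strand) was the only one of the 10 genes that passed against untreated cells at all 3 times of both agents. Untreated libraries were at 12.45, 12.50 and 12.52. The H2O2 libraries read 12.71, 12.67 and 12.67 at 4 h, then 12.79, 12.67 and 12.82 by 8 h, and finally 13.08, 13.04 and 12.95 at 24 h. The NCS libraries read 12.75, 12.73 and 12.72 at 4 h, then 12.82, 12.77 and 12.79 by 8 h, and finally 13.05, 13.11 and 13.07 at 24 h. Every treated library exceeded every untreated one, and every 24 h library exceeded every 4 h and 8 h library. The rise was 0.19, 0.27 and 0.53 after H2O2 (limma adjusted p = 0.0001833, 6.051e-06 and 3.423e-10) and 0.24, 0.31 and 0.58 after NCS (5.361e-05, 2.225e-06 and 1.039e-10). On a linear scale the 24 h values were 1.45-fold and 1.50-fold the untreated level. All 6 calls held under every alternative run. The annotation types GPX1 as a polymorphic pseudogene, and it lists processed pseudogenes of GPX1, SOD1 and SOD2, so reads shared with those copies make the levels of these 3 genes uncertain.

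GPX3 (chromosome 5, 151020438 to 151028993, plus strand), the secreted enzyme, rose late. It measured 8.83, 9.04 and 9.03 in untreated cells, 9.46, 9.50 and 9.50 at 24 h of H2O2, and 9.51, 9.56 and 9.61 at 24 h of NCS. Both 24 h groups lay well above all other libraries, which ran from 8.83 to 9.24, and NCS 24 h lay above H2O2 24 h without overlap. The limma adjusted p was 3.496e-07 after H2O2 and 6.744e-08 after NCS, and both calls held under every alternative run. At 8 h the differences of 0.14 and 0.15 did not pass (adjusted p = 0.05157 and 0.05988). With H2O2 the 8 h difference passed under library medians aligned, quantile normalization and a floor of 5 on the mean value (adjusted p = 0.03521, 0.04314 and 0.02232). It also passed without H2O2 4 h replicate 2 (0.04902) or 3 (0.04849), H2O2 8 h replicate 1 (0.01684), or untreated replicate 2 (0.03023) or 3 (0.03631). With NCS it passed under quantile normalization (0.04535) and that floor on the mean value (0.02359), and without H2O2 8 h replicate 1 (0.04471) or 3 (0.02801) or untreated replicate 2 (0.03735) or 3 (0.04369).

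To show what lies before the RefSeq starts (GRCh38.p14) of the genes that rose together at 24 h, the 250 bases upstream are given. The windows are those of CAT (chr11:34438684-34438933, plus strand), GPX1 (chr3:49358354-49358603, minus strand) and GPX3 (chr5:151020341-151020590, plus strand), each 5′ to 3′ on the strand of its gene. For these genes and GPX2 the RefSeq start used lies inside the GENCODE gene, and the GPX1 window lies almost wholly within it. The window of GPX2 (chr14:64942746-64942995, minus strand) is given for contrast, since it alone among the windows of these genes held the antioxidant response element searched. Capitals mark matches to 3 motifs, searched on both strands: CCAAT, the box bound by NF-Y; CACGTG, the E-box bound by factors such as MYC and USF; and TGACNNNGC, the core of the antioxidant response element bound by NRF2.
CAT: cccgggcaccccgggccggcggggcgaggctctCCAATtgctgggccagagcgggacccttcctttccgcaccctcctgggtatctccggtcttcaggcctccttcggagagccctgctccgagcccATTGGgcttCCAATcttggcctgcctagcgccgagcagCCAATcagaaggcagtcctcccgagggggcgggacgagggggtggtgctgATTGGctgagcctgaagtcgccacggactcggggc
GPX1: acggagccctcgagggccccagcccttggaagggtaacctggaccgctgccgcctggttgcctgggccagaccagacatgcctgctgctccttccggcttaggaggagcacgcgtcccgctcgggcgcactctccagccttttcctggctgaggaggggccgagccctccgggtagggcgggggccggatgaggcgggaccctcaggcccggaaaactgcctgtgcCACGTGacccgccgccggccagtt
GPX3: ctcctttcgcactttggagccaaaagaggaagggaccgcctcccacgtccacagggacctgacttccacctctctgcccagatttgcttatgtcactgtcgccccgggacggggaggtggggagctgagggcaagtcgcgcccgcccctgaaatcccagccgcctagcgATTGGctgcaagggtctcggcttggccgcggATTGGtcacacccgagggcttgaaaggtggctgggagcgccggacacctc
GPX2: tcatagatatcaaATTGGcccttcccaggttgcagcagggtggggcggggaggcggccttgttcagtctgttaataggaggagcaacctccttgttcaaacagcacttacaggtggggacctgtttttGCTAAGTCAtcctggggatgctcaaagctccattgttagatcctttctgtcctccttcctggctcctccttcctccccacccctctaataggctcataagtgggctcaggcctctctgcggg
CAT held 5 CCAAT boxes, 217, 123, 114, 85 and 35 bases before the start, and GPX3 held 2, at 81 and 50. GPX1 held no CCAAT box and 1 E-box, at 24. GPX2 held 1 antioxidant response element, at 122, and 1 CCAAT box, at 237. By the GENCODE positions, the E-box of GPX1, both CCAAT boxes of GPX3 and the element of GPX2 fall inside the genes. Of 35116 upstream windows of the same length, 32.0% held a CCAAT box, 6.34% the E-box and 10.9% the antioxidant response element. Windows of SOD2, SOD3 and GPX4 also held a CCAAT box, and none of the motifs was found in the windows of CAT, GPX1 and GPX3 alike. The table held 14 windows for 9 of the genes, and SOD1 was not among them.

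GPX2 (chromosome 14, 64939152 to 64942905, minus strand), the epithelial enzyme of the gut, was far below the library medians. It ran from 0.707 to 0.830 over the 21 libraries, and the 6 differences from untreated cells lay between -0.01 and 0.03, none of which passed. The gene whose window held the antioxidant response element was therefore the one with the lowest level.

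GPX4 (chromosome 19, 1103926 to 1106791, plus strand) was higher after H2O2, most clearly at 4 h. Its libraries measured 10.91, 11.03 and 11.02 in untreated cells, 11.24, 11.12 and 11.21 at 4 h of H2O2, and 11.12, 11.13 and 11.06 at 24 h. Both groups lay above the untreated libraries, whereas the 8 h libraries, from 11.03 to 11.18, reached the highest untreated value. The difference was 0.20 ± 0.04 at 4 h (limma adjusted p = 0.0009701), 0.13 at 8 h (0.02996) and 0.12 at 24 h (0.04266). The 8 h call was lost without H2O2 8 h replicate 1 (adjusted p = 0.1569) or 3 (0.08396), without untreated replicate 1 (0.1684), and in a fit of the compared groups alone (0.1263). The 24 h call was lost without untreated replicate 1 (difference 0.08, adjusted p = 0.2252), H2O2 24 h replicate 1 (0.1122) or 2 (0.13), replicate 3 of NCS 4 h (0.05158), 8 h (0.05076) or 24 h (0.05086), in a fit of the compared groups alone (0.06019) and with the replicate number as a block (0.05286). After NCS the differences were 0.10, 0.00 and 0.05, and none passed. Under quantile normalization the one at 4 h did (0.13, limma adjusted p = 0.04355). Set directly against NCS at 4 h, GPX4 with H2O2 did not pass (0.10, limma adjusted p = 0.06756). It passed with a floor of 5 on the mean value (0.03319), and without H2O2 4 h replicate 2 (0.14, adjusted p = 0.02359) or H2O2 8 h replicate 2 (0.04561).

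GPX7 (chromosome 1, 52602372 to 52609051, plus strand), which assists oxidative protein folding, varied between 7.77 and 8.14. It passed in 1 comparison with untreated cells, at 24 h of NCS, where libraries at 8.14, 8.03 and 8.10 faced untreated ones at 7.77, 8.03 and 7.98 and overlapped them at 8.03. The difference was 0.16 ± 0.06 (limma adjusted p = 0.03685). It shrank to 0.08 without untreated replicate 1, the lowest library of all (adjusted p = 0.2613), and the call was also lost without NCS 24 h replicate 1 (0.1348) or 3 (0.08642) and in a fit of the compared groups alone (0.156).

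GPX8 (chromosome 5, 55160118 to 55167071, plus strand), a membrane protein of the endoplasmic reticulum, differed between the agents. Untreated libraries stood at 12.21, 12.15 and 12.20. The NCS libraries stood at 11.97, 12.00 and 12.05 at 4 h, then at 12.03 in all 3 by 8 h, and finally at 12.24, 12.17 and 12.23 at 24 h. The 4 h and 8 h libraries all lay below untreated cells and the 24 h libraries overlapped them. GPX8 fell by 0.18 ± 0.03 at 4 h and 0.16 at 8 h (limma adjusted p = 4.313e-05 and 0.0001444), and differed by 0.03 at 24 h (0.4933). The H2O2 libraries stood at 12.18, 12.24 and 12.23 at 4 h, then at 12.08, 12.13 and 12.10 by 8 h, and finally at 12.05, 12.09 and 12.13 at 24 h. The H2O2 libraries overlapped untreated cells at 4 h and lay below them afterwards, with falls of 0.08 at 8 h (adjusted p = 0.01504) and 0.09 at 24 h (0.006614). The 8 h call was lost without H2O2 8 h replicate 1 (0.06591), untreated replicate 1 (0.06013) or 3 (0.05357) and in a fit of the compared groups alone (0.0517), and the 24 h call under quantile normalization (fall of 0.05, adjusted p = 0.1831).

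H2O2 and NCS were also set against each other at equal times. At 4 h, 2 of 10 passed beside 44.4% of all tested genes, at 8 h 3 beside 34.1%, and at 24 h 2 beside 21.9%. At 4 h CAT was lower with H2O2 than with NCS by 0.14 (limma adjusted p = 0.003097) and GPX8 was higher by 0.21 (2.017e-06), with no overlap of libraries for either gene. At 8 h SOD2 was higher with H2O2, at 9.71, 9.68 and 9.59 against 9.53, 9.54 and 9.48, a difference of 0.14 (0.00478). GPX4 (0.13, adjusted p = 0.03373) and GPX8 (0.07, 0.03698) also passed at 8 h. The call for GPX4 was lost without H2O2 8 h replicate 1 (0.1708) or 3 (0.09078) or NCS 8 h replicate 2 (0.1329) or 3 (0.08713), under quantile normalization (0.0778) and in a fit of the compared groups alone (0.1001). The call for GPX8 was lost without H2O2 8 h replicate 2 (0.1107) or 3 (0.07626) or NCS 8 h replicate 1 (0.08002), 2 (0.07723) or 3 (0.07857), and under quantile normalization (difference 0.02, adjusted p = 0.7233).

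At 24 h the direction for GPX8 was the opposite of that at 4 h. It was lower with H2O2 than with NCS by 0.12 (limma adjusted p = 0.002007), and all H2O2 libraries lay below all NCS libraries. SOD3 was lower with H2O2 by 0.20 (adjusted p = 0.01774), a call lost without H2O2 24 h replicate 3 (0.09009) or NCS 24 h replicate 2 (0.09115). The change of the H2O2 minus NCS difference from 4 to 24 h passed for GPX8 and SOD3, 2 of the 10 genes, beside 39.4% of all tested genes. Where the agents did not differ by the test, the 95% intervals at 24 h ran from -0.12 to 0.02 for GPX1, from -0.19 to 0.04 for GPX3 and from -0.13 to 0.02 for CAT, so differences up to these bounds remain possible.

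**Figure D3:**
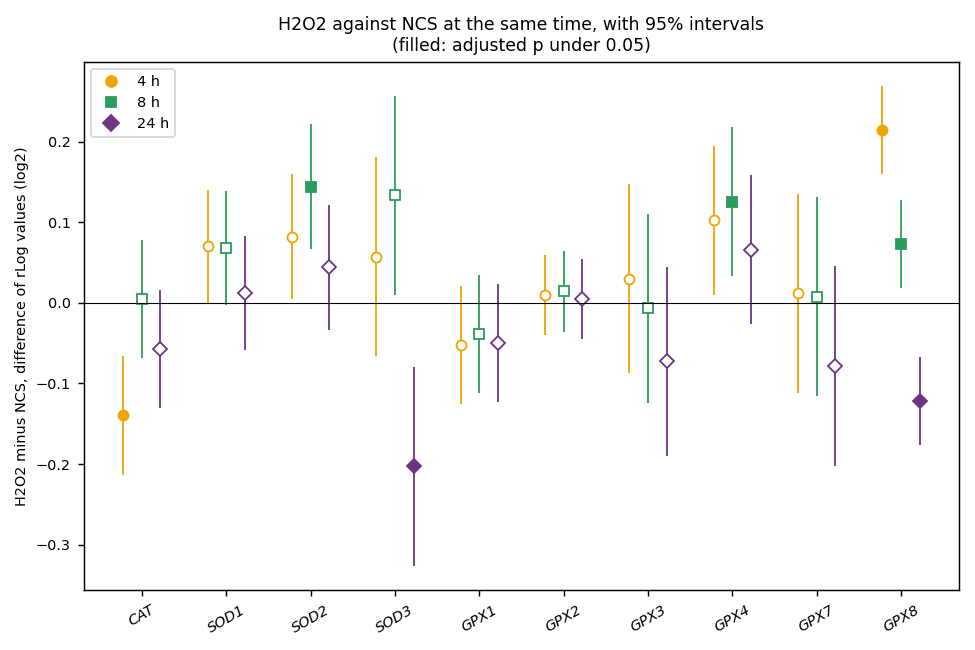
Log2 difference of rLog values, H2O2 minus NCS (y axis), for the 10 genes (x axis) at 4, 8 and 24 h, 3 libraries against 3, with 95% intervals from limma and filled symbols where the adjusted p was under 0.05. GPX8 moves from 0.21 at 4 h to -0.12 at 24 h, and the intervals of GPX1 and GPX3 hold 0 at every time.

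Steps in time were compared within each agent. With H2O2, 4 of 10 passed from 8 to 24 h, beside 42.6% of all tested genes, with CAT higher by 0.19, GPX1 by 0.27 and GPX3 by 0.38, and SOD2 lower (-0.18). With NCS, 5 passed in that step beside 29.9%, all higher, namely CAT by 0.25, GPX1 by 0.28, GPX3 by 0.44, GPX8 by 0.18 and SOD3 by 0.25. From 4 to 8 h of H2O2, 2 passed beside 45.7%, CAT (0.15) and GPX8 (-0.11), the call for CAT being lost in a fit of those groups alone (limma adjusted p = 0.05494). From 4 to 8 h of NCS, SOD2 alone passed beside 13.7% (-0.11, adjusted p = 0.04699), the highest adjusted p among the calls. It was lost (adjusted p from 0.05015 to 0.1923) without any single library of NCS 8 h, H2O2 4 h or H2O2 24 h, without replicate 1 or 2 of NCS 4 h or of untreated cells, and without replicate 2 or 3 of NCS 24 h.

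Other genes of the antioxidant response reached larger differences with H2O2 than any of the 10 genes did. The shares of all tested genes that passed upward were 26.2%, 18.8% and 20.2% at 4, 8 and 24 h of H2O2 and 7.47%, 10.5% and 19.6% after NCS, and downward 19.7%, 18.6% and 19.9%, and 9.72%, 13.3% and 18.4%. Of 8 genes known to answer to NRF2, 6, 7 and 7 were higher at the H2O2 times and 2, 2 and 4 at the NCS times, with none lower. HMOX1, the heme oxygenase, rose by 3.44, 2.50 and 0.76 with H2O2 and by 0.88, 0.45 and 0.27 with NCS. ABCC2, an export pump, rose by 1.71 and 0.80 at 4 and 8 h of H2O2, but did not pass with NCS. OSGIN1 rose by 0.56, 1.13 and 0.41 over the H2O2 times and by 0.59 and 0.48 at 4 and 8 h of NCS. The list medians were 0.27, 0.51 and 0.58 with H2O2 and 0.04, 0.04 and 0.16 with NCS, beside medians of all genes within 0.01 of 0.

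Of 7 genes that supply reduced glutathione, 4, 6 and 5 were higher and 0, 1 and 1 lower with H2O2, and 3, 2 and 2 were higher and 1, 0 and 2 lower with NCS. SLC7A11, the cystine importer, rose by 0.68, 0.96 and 0.66 with H2O2. GCLM and GCLC, the subunits of the enzyme that begins glutathione synthesis, rose by 0.82 and 0.57 at 8 h of H2O2. In the thioredoxin system, 2, 2 and 2 of 4 genes were higher with H2O2 and 0, 1 and 0 lower, against 1, 2 and 1 higher and 0, 0 and 1 lower with NCS. TXNRD1, the cytosolic thioredoxin reductase and itself a selenoprotein, rose by 0.33, 1.06 and 0.46 with H2O2 and fell by 0.25 at 24 h of NCS, TXN rose by 0.23 at 8 h of H2O2 and TXNRD2 by 0.14 at 4 h of NCS.

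The peroxiredoxins, which reduce peroxides beside catalase and the glutathione peroxidases, were counted with sulfiredoxin, which repairs them. All 7 were higher at 4 h of H2O2, 4 were higher and 1 lower at 8 and at 24 h, and with NCS 1, 0 and 4 were higher and 0, 0 and 1 lower. SRXN1 rose by 0.49, 0.93 and 0.28 with H2O2 and did not pass with NCS. PRDX5 rose at 24 h under both agents, by 0.32 and 0.41, as PRDX6 did by 0.23 and 0.11.

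**Figure D4:**
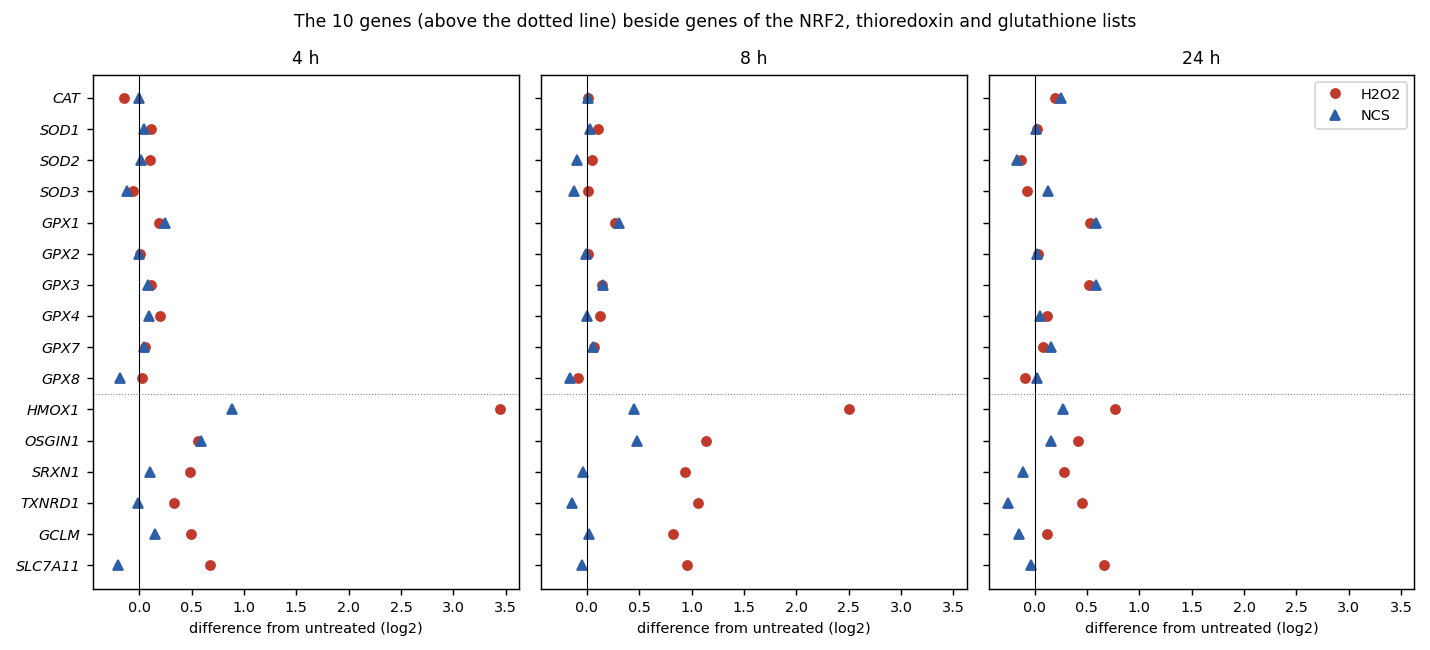
Log2 differences from untreated cells (x axis) at 4, 8 and 24 h for the 10 genes, above the dotted line, and for 6 genes of the NRF2, peroxiredoxin, thioredoxin and glutathione lists, below it, with H2O2 as circles and NCS as triangles. HMOX1 reaches 3.44 with H2O2, whereas the 10 genes stay within 0.59 of untreated cells.

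Other lists held genes that equip the enzymes with selenium or copper. Of 6 genes of selenoprotein synthesis, 2, 2 and 3 were higher and 2, 1 and 1 lower with H2O2, and 1, 2 and 3 were higher and 0, 0 and 2 lower with NCS. TRNAU1AP was raised by 0.51 at 4 h of H2O2, EEFSEC, the elongation factor for selenocysteine, was lower at 8 h (-0.41), and SEPHS2, which makes the selenium donor, was higher at 24 h (0.28). Of 4 genes of copper delivery, 1, 1 and 3 were higher and 2, 1 and 0 lower with H2O2, and 1, 1 and 3 were higher and 1, 1 and 1 lower with NCS. CCS, the chaperone that loads copper into SOD1, rose by 0.35 at 24 h of H2O2 and 0.20 at 24 h of NCS. The copper exporter ATP7A, which supplies SOD3, was lower at 8 h of H2O2 (-0.38) and higher at 24 h of NCS (0.34), and the importer SLC31A1 was higher at 8 h of H2O2 (0.31).

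The genes most like each of these enzymes were found by Pearson's r over the 21 libraries, among those with a mean value of at least 5 and group means spanning at least 0.5. These libraries share groups and a common normalization, so r is given as a description. For GPX1 the leading genes were PTCHD4 (r = 0.95, Spearman's rho = 0.934), ANXA4 (0.947) and RPS27L (0.946). For GPX3 they were DNER (r = 0.954, rho = 0.725), FNDC4 and POLD4 (0.947 each), and for CAT PPFIBP1 (r = 0.95, rho = 0.808), PCNXL2 (0.93) and APBB2 (0.927). SOD2 was most like SNHG4 (r = 0.923, rho = 0.94), EIF4A3 and DDX21 (0.92 each), and GPX8 most like PDK1 (r = 0.896, rho = 0.852), LDB2 (0.785) and MIR210HG (0.75). SOD1 paired with PMAIP1 (r = 0.838, rho = 0.801), PTP4A1 and VASN (0.832 each), and GPX4 with SDC4 (r = 0.821, rho = 0.784), KLF4 (0.82) and IFITM10 (0.814). GPX7 had no close counterpart, with TMEM35 at r = 0.621 (rho = 0.686), CD68 at 0.61 and CPT1C at 0.602.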

How the data were processed

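RNA was taken from hTERT-HPNE cells after 0, 4, 8 or 24 h, made into stranded libraries from polyadenylated RNA and sequenced as paired reads of 150 bases. The submitters' processing notes name HISAT2, HTSeq, DESeq2 and the build hg19, without versions. The authors deposited log2 (rLog) values from DESeq2, a transformation that scales libraries and shrinks the differences of low genes, so fold changes of low genes are understated. No counts were used here, and depth and counting error are unknown. Values were fitted as deposited with limma 3.58.1 (R 4.3.3) with a mean-variance trend, in 1 fit of all 7 groups, and p-values were adjusted by the Benjamini-Hochberg method over the 19694 genes that varied. The fit was tested on simulated data. The study fitted counts, so limma takes the place of its test. Gene positions and lengths are from GENCODE v29 (GRCh38) and upstream windows from RefSeq, none converted from hg19. The genes and lists were chosen with earlier results of these data known. Named were the 10 genes, up to 3 genes of each list with the largest passing difference from untreated cells, the 3 genes most correlated with each gene that passed against untreated cells, and the cell type markers. Alternatives were medians aligned, quantile normalization, a floor of 5 on the mean value, the compared groups alone, the replicate number as a block, a fold limit of 0.58 and each library left out. The result of a list of peroxisomal import genes is not reported here.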

Additional observations from a re-analysis of the deposited data

Results flagged for a closer look

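The difference between H2O2 and NCS changed from 4 to 24 h for 2 of the 10 genes, beside 39.4% of all tested genes. For GPX8 the H2O2 minus NCS difference went from 0.21 to -0.12, a change of -0.3362 (limma interaction term, adjusted p = 1.064e-06), which passed under every alternative run. For SOD3 it went from 0.06 to -0.20, a change of -0.2604 (adjusted p = 0.01835). The call for SOD3 was lost without H2O2 24 h replicate 3 (-0.22, adjusted p = 0.05302) or NCS 24 h replicate 2 (-0.22, adjusted p = 0.05378) and under quantile normalization (-0.15, adjusted p = 0.1538).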

How the results depend on the processing

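No call of the 10 genes reversed under any alternative. Of the values recomputed without leaving a library out, 642 kept their side of the threshold, 27 newly passed and 17 no longer passed, and of those with 1 library left out 2869, 19 and 52. Among 2410 values that passed neither way, 99 changed sign. With only the compared groups fitted, the count of genes passing went from 4 to 1 for H2O2 at 8 h against untreated cells, from 2 to 1 for 8 against 4 h of H2O2, and from 1 to 0 for 8 against 4 h of NCS. Quantile normalization gave 4 instead of 2 for H2O2 against NCS at 4 h and for 8 against 4 h of H2O2, 0 instead of 1 for 8 against 4 h of NCS, and 1 instead of 2 for the change from 4 to 24 h. Aligned medians gave 5 instead of 3 for H2O2 against NCS at 8 h. At a fold limit of 0.58 instead of 1, 2 genes (GPX1 and GPX3) passed at 24 h of NCS instead of 0. Leaving out single libraries gave 1 to 5 for H2O2 at 8 h against untreated cells, 2 to 4, 1 to 4 and 1 to 2 for H2O2 against NCS at 4, 8 and 24 h, 0 to 1 for 8 against 4 h of NCS, and 1 to 2 for the change. GPX2 was not tested with a floor of 5 on the mean value. Same-numbered libraries of different groups had a mean correlation of their deviations of 0.0274 over 63 pairs (from -0.149 to 0.213). Differently numbered ones had -0.0137 over 126 pairs (from -0.185 to 0.157). Whether the libraries pair was not tested. With the replicate block, 0 instead of 1 passed for 8 against 4 h of NCS (SOD2, adjusted p = 0.05914), GPX4 at 24 h of H2O2 was lost (0.05286), and GPX3 at 8 h passed with H2O2 (0.04232) and NCS (0.04978). Aligned medians raised the share of all genes passing from 21.9% to 38.5% for H2O2 against NCS at 24 h, from 23.9% to 38.7% for NCS at 8 h and from 29.9% to 49.9% for 24 against 8 h of NCS, and moved the median of all genes by at most 0.0303. That floor raised the shares to 59.1%, 65.3%, 32.4%, 43.0% and 63.4% for H2O2 at 8 and 24 h and NCS at 4, 8 and 24 h against untreated cells. Causes were not tested.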

Other observations

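Of 9 genes known to answer to NF-kB, a factor that acts on SOD2, 8 were tested. CXCL8 was at 0 throughout or not listed under that symbol. With NCS 7, 6 and 3 of them were higher and 0, 1 and 3 lower at 4, 8 and 24 h, and with H2O2 5, 3 and 3 were higher and 1, 1 and 2 lower. RELB, an NF-kB subunit, rose by 1.10 at 4 h of NCS and 0.63 at 4 h of H2O2, and BIRC3, an inhibitor of apoptosis, by 0.76 at 4 h of NCS, with a value of -0.05 at 4 h of H2O2 that did not pass. TNFAIP3, which restrains the pathway, rose by 0.51 at 4 h of NCS and 0.20 at 4 h of H2O2. At the same time SOD2 was higher with H2O2 than with NCS by 0.08, which did not pass (limma adjusted p = 0.08167). Under quantile normalization that difference passed (0.12, adjusted p = 0.01128). Against untreated cells SOD2 differed at 4 h by 0.10 with H2O2, which passed, and by 0.02 with NCS, which did not.

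Of 8 genes of the NADPH oxidases, which make superoxide or H2O2, 7 were tested. CYBB was at 0 throughout or not listed under that symbol. With H2O2 1 was higher at each time and 0, 1 and 0 were lower, and with NCS 0, 0 and 1 were higher and none lower. DUOX2 rose by 0.36 at 4 h of H2O2, at a mean value of 1.94, far below the library medians. NOX4 was lower at 8 h of H2O2 (-0.26), and CYBA rose by 0.28 at 24 h of NCS.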
